A study of Mus musculus with 12 samples.

Results

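Total RNA was sequenced from mouse embryonic fibroblasts (MEFs) after 24 h with rapamycin or with its solvent. These are connective tissue cells grown out of embryos. The 3 rapamycin libraries came from cells given 20 ng/ml of the drug and the 3 control libraries from cells given DMSO. All genes that passed a filter on low counts in these libraries and the 6 others of the series are described, which is 15917 of 49315 genes in the tables. The 6 others are cells given Torin1 at 250 nM or RapaLink-1 at 10 nM, with 3 libraries each, and they enter only where rapamycin is compared with them. All groups were grown in DMEM with 10% FBS, and the sources used here do not give the strain, the passage or whether the line was immortalised. Nothing in the labels ties the 3 libraries of a group to separate cultures. A p-value therefore reflects the scatter of these libraries, which may be technical. Total counts were 30495065 to 38809352 with rapamycin and 34696405 to 39423703 with DMSO.

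The kinase mTOR works in a pair of complexes. Complex 1 senses amino acids and growth factors and switches on translation, ribosome building and anabolic enzymes, and complex 2 acts on AKT and related kinases. Rapamycin is a bacterial macrolide that binds the prolyl isomerase FKBP12, and the pair docks beside the active site of complex 1, so that it blocks some substrates of the kinase more than others. Torin1 fills the ATP site of the kinase and so acts on both complexes, and RapaLink-1 joins rapamycin to such an ATP-site inhibitor through a linker.

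The cells carried the messages of fibroblasts. All 12 fibroblast markers were detected, with a summed level of 15790 to 16100 counts per 1000000 counts of a library (CPM) with rapamycin and 18100 to 18410 CPM with DMSO, and 4 of them rose and 7 fell. Smooth muscle markers summed to 2675 to 2750 CPM with rapamycin and 1877 to 1910 CPM with DMSO, and 4 of them rose. Most of this sum was Acta2 (2392 to 2462 CPM with rapamycin and 1659 to 1687 CPM with DMSO). Myh11 (0.192 to 0.428 CPM over the 6 libraries) and Des (0.14 to 0.202 CPM) were near the floor. Cldn5 of the endothelial list, Adgre1 of the macrophage list and Myod1, Myog and Ckm of the skeletal muscle list had no counts in the 6 libraries. Other members of these lists had counts, such as Kdr (0.604 to 1.228 CPM over the 6 libraries), Cd14 (4.92 to 6.82 CPM) and Myf5 (0.026 to 0.224 CPM). Summed endothelial markers were at 1.53 to 2.26 CPM with rapamycin and 1.16 to 1.76 CPM with DMSO, and 1 of the 2 tested rose. Summed skeletal muscle markers were at 0.223 to 0.384 CPM with rapamycin and 0.184 to 0.238 CPM with DMSO, and 1 of the 2 tested rose. Summed macrophage markers were at 7.8 to 9.4 CPM with rapamycin and 9.7 to 10.1 CPM with DMSO, and neural markers at 75.7 to 83.7 CPM with rapamycin and 91.9 to 95.8 CPM with DMSO. Most of the neural sum was Map2 (61.4 to 68.7 CPM with rapamycin and 73.9 to 77.05 CPM with DMSO). Epithelial markers summed to 0.78 to 1.21 CPM with rapamycin and 0.95 to 1.08 CPM with DMSO. Adipocyte markers, nearly all Fabp4, summed to 11.4 to 13 CPM with rapamycin and 10.1 to 11.8 CPM with DMSO. In bulk samples fewer cells of a type and less RNA per cell cannot be told apart.

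A gene was called when edgeR's quasi-likelihood test gave a Benjamini-Hochberg adjusted p under 0.05 over all genes tested. By this rule 27.5% of genes were called higher and 32.2% lower with rapamycin, 59.7% in all, and counts within a gene group below are to be read against these shares. Groups whose libraries did not overlap were as common, at 63% of genes. Genes named below for their fold were picked among these, so their separate groups add no support. With upper-quartile scaling, which moves the median of all genes by 0.06 on the log2 scale, 5481 genes were called higher and 4061 lower, so a small change in a single gene has no firm sign.

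Among large changes rises outnumbered falls. Of the called genes 1330 were higher and 440 lower by at least 1.5-fold, 484 (3.04% of those tested) higher and 84 (0.528%) lower by at least 2-fold, and 40 higher and 3 lower by at least 4-fold. The direction went with abundance. Among genes with a mean under 1 CPM over the 12 libraries, 16.1% were called higher and 4.36% lower, among those of 1 to 10 CPM 34.3% higher and 14.9% lower, and among those over 100 CPM 28.5% higher and 59.9% lower. Of the genes over 100 CPM only 6 were higher and 2 lower by at least 2-fold. Together the genes called lower took 52.92% ± 0.0123 of the counts with rapamycin and 60.3% ± 0.0205 with DMSO (SD, n = 3 each). The genes called higher took 32.32% ± 0.0272 with rapamycin and 25.78% ± 0.025 with DMSO. As the calls come from the same libraries, the direction of these shares was fixed by the choice of genes, and only their size is informative. The 2 genes with the lowest mean that passed the filter, Nr5a2 (0.0138 CPM) and Pm20d2 (0.0235 CPM), passed through the other compounds' libraries, and the 2 with the highest mean that did not pass were Hist1h3e (0.277 CPM) and Camk1g (0.276 CPM).

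**Figure D1:**
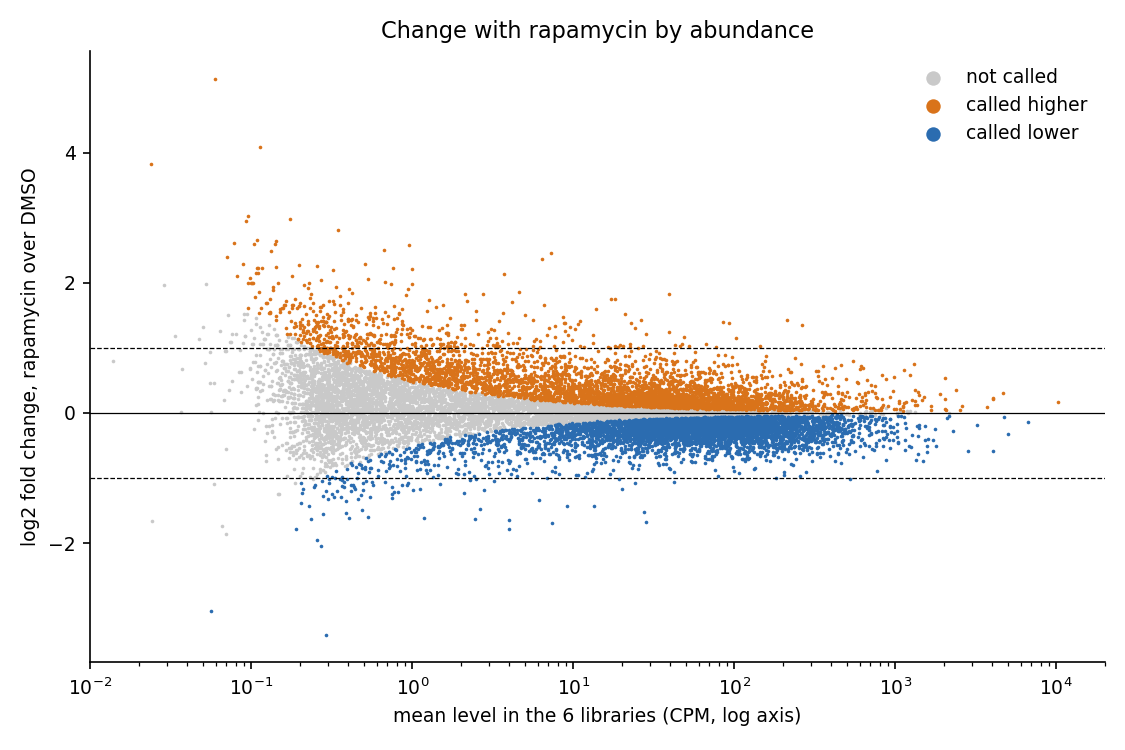
Log2 fold change (rapamycin over DMSO, vertical axis) of 15917 genes against their mean level in the 6 libraries (CPM, log axis), with genes called higher in orange, called lower in blue and not called in grey. Points over 100 CPM lie close to 0 and mostly below it, and the points past 2-fold (dashed lines) are mostly rises of genes under 10 CPM.

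Gene classes differed too. Of 13110 protein-coding genes tested, 28.1% were called higher and 37.7% lower, with a median log2 fold change of -0.03. Of 452 lincRNAs, long noncoding RNAs between genes, 32.1% were called higher and 6.64% lower (median 0.33), and of 572 antisense genes 30.6% higher and 2.8% lower (median 0.36). Most of these are low in abundance, and antisense genes are uncertain, because the sources used here do not give the strand setting of the counting. Of the 511 genes tested on the X chromosome 19.8% were called higher and 37.6% lower.

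The direct targets moved little. Mtor, the kinase, was at 80.2, 83.5 and 80.5 CPM with rapamycin, against 72.8, 72.5 and 74.2 CPM with DMSO (log2 fold change 0.15 ± 0.03, adjusted p = 7.15e-07). The rapamycin libraries lay above the DMSO libraries for Mtor and for Rictor, the scaffold of complex 2 (0.22 ± 0.03 on the log2 scale), and below them for Rptor, the scaffold of complex 1 (-0.20 ± 0.03). Fkbp1a, which encodes FKBP12, was at 364, 359 and 361 CPM with rapamycin, against 389.6, 383 and 380.4 CPM with DMSO (log2 fold change -0.09 ± 0.02, adjusted p = 1.48e-06), a call that is lost with other settings. Of the 12 subunits and assembly factors of both complexes tested, 5 rose and 4 fell. Deptor, an inhibitor that binds the kinase in both complexes, rose (0.43 ± 0.06 on the log2 scale), and Akt1s1 (PRAS40), an inhibitor within complex 1, fell (-0.35 ± 0.03).

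Brakes that act upstream of complex 1 fell more often than they rose. In this group 2 rose and 9 fell of 13 tested (median log2 fold change -0.17), or 3 and 6 with upper-quartile scaling. Ddit4 (REDD1), a stress-induced inhibitor that acts through the TSC complex, was at 14.3, 14 and 14.5 CPM with rapamycin, against 40.005, 41.7 and 41.3 CPM with DMSO (log2 fold change -1.52 ± 0.05, adjusted p = 9.87e-69). Its relative Ddit4l was at 0.279, 0.383 and 0.605 CPM with rapamycin, against 0.893, 1.34 and 1.004 CPM with DMSO (log2 fold change -1.31 ± 0.29, adjusted p = 2.37e-05). For both genes each rapamycin library was lower than each DMSO library. The leucine sensor Sesn2 (-0.87 ± 0.07 on the log2 scale) and its relatives Sesn1 (-0.35 ± 0.04) and Sesn3 (-0.27 ± 0.03) fell as well, while Nprl3, a subunit of the amino acid brake GATOR1, rose (0.40 ± 0.04). TSC1 and TSC2, the subunits that hold the small GTPase Rheb in check, were within 0.1 of no change (Tsc1 -0.08 ± 0.03 and Tsc2 0.07 ± 0.02), and their calls depend on the settings.

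Messages for the translation machinery that complex 1 regulates fell in most cases, and 3 rose and 11 fell of 16 tested (median log2 fold change -0.17). The cap-binding protein Eif4e was at 137, 132 and 133 CPM with rapamycin, against 188, 179.8 and 186 CPM with DMSO (log2 fold change -0.46 ± 0.02, adjusted p = 3.32e-47). Its repressor Eif4ebp2 was at 67.9, 71.6 and 72.1 CPM with rapamycin, against 93.4, 90.2 and 90.7 CPM with DMSO (log2 fold change -0.37 ± 0.03, adjusted p = 1.08e-26). In the opposite direction went Pdcd4, an inhibitor of the helicase eIF4A that S6 kinase marks for destruction, at 53.9, 50.9 and 50.7 CPM with rapamycin, against 31.3, 31.3 and 29.97 CPM with DMSO (log2 fold change 0.75 ± 0.04, adjusted p = 8.71e-45). The rapamycin libraries were all lower for Eif4e and Eif4ebp2 and all higher for Pdcd4. Within the eIF4G scaffolds Eif4g1 (-0.35 ± 0.01) and Eif4g2 (-0.44 ± 0.01) fell and Eif4g3 rose (0.42 ± 0.03).

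The next layer was the synthesis of ribosomal, transfer and other stable RNAs. Of the RNA polymerase I and III genes 3 rose and 27 fell of 36 tested (median log2 fold change -0.23). The alternative polymerase III subunits moved apart. Polr3g, the form known from stem and tumour cells, was at 12.6, 12 and 12.7 CPM with rapamycin, against 22.8, 22.7 and 23.1 CPM with DMSO (log2 fold change -0.87 ± 0.06, adjusted p = 8.34e-33). Polr3gl, the form of resting cells, was at 12.2, 10.8 and 10.8 CPM with rapamycin, against 7.59, 7.56 and 7.39 CPM with DMSO (log2 fold change 0.58 ± 0.07, adjusted p = 8.10e-13). Each rapamycin library was lower than each DMSO library for Polr3g and higher for Polr3gl. The polymerase I factor Rrn3 (TIF-IA, -0.41 ± 0.02) and the subunit Cd3eap (-0.60 ± 0.05) fell. Of the tRNA-modifying enzymes 2 rose and 35 fell of 46 tested (median log2 fold change -0.21), among them both subunits of the 7-methylguanosine enzyme, Mettl1 at -0.68 ± 0.04 and Wdr4 at -0.51 ± 0.04.

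Splicing and nuclear transport moved as near-complete blocks of small falls. Of the core proteins of the spliceosomal snRNPs 0 rose and 36 fell of 38 tested (median log2 fold change -0.30), with Snrpa1 of the U2 particle at -0.66 ± 0.03 and the catalytic core protein Prpf8 at -0.49 ± 0.02. Of the pore proteins and transport receptors 0 rose and 52 fell of 53 tested (median log2 fold change -0.35). Rcc1, which loads the GTPase Ran in the nucleus, was at 72.5, 72 and 69.3 CPM with rapamycin, against 108, 107 and 108 CPM with DMSO (log2 fold change -0.60 ± 0.03, adjusted p = 9.22e-49). The importin Kpnb1 was at 866, 869 and 874 CPM with rapamycin, against 1204, 1212 and 1187 CPM with DMSO (log2 fold change -0.47 ± 0.01, adjusted p = 7.58e-70). For either gene the lowest DMSO library was above the highest rapamycin library.

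Genes of amino acid supply fell unevenly. Among the enzymes of serine synthesis and the folate-bound 1-carbon cycle 2 rose and 17 fell of 22 tested (median log2 fold change -0.46), and their summed share of the counts was 0.1843% ± 0.00101 with rapamycin and 0.2547% ± 0.000971 with DMSO (SD, n = 3 each), with an exact two-sided permutation p of 0.1, the smallest that 3 against 3 allows. Aldh1l2, which oxidises formyl folate in mitochondria, had the largest fall of any named gene over 10 CPM, at 12.9, 14.1 and 13.1 CPM with rapamycin, against 41.9, 43.4 and 42.9 CPM with DMSO (log2 fold change -1.68 ± 0.05, adjusted p = 8.24e-74). Beside it in mitochondria, Mthfd2 was at 69.9 CPM with rapamycin and 129 CPM with DMSO on average (log2 -0.88 ± 0.03) and Shmt2 at 168 CPM with rapamycin and 294 CPM with DMSO (-0.81 ± 0.02). Their rapamycin libraries were all below their DMSO libraries. Cth, which makes cysteine from cystathionine, was at 3.54, 3.99 and 2.998 CPM with rapamycin, against 9.22, 8.28 and 8.84 CPM with DMSO (log2 fold change -1.34 ± 0.10, adjusted p = 3.75e-27). Bcat1, the cytosolic transaminase of branched-chain amino acids, was at 74.4, 73.2 and 74.3 CPM with rapamycin, against 135, 139.7 and 144 CPM with DMSO (log2 fold change -0.91 ± 0.03, adjusted p = 8.29e-75). The asparagine synthetase Asns (-0.71 ± 0.03) and the alanine transaminase Gpt2 (-0.84 ± 0.04) fell likewise.

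Amino acid transporters moved in both directions. In the whole family 6 rose and 14 fell of 24 tested (median log2 fold change -0.21). Slc7a5, the exchanger that brings in leucine, was at 140.2, 138 and 141 CPM with rapamycin, against 261, 273 and 275 CPM with DMSO (log2 fold change -0.95 ± 0.02, adjusted p = 1.19e-91), and its heavy chain partner Slc3a2 at -0.49 ± 0.02. The glutamine carriers Slc1a5 (-0.56 ± 0.04) and Slc38a1 (-0.44 ± 0.02) and the cystine exchanger Slc7a11 (-0.44 ± 0.05) fell, and 1 rose and 7 fell of 8 tested (median log2 fold change -0.32) in the small neutral carriers. Rises were called for Slc43a2, another leucine carrier, at 8.68, 10.4 and 9.57 CPM with rapamycin, against 5.86, 5.72 and 5.92 CPM with DMSO (log2 fold change 0.71 ± 0.08, adjusted p = 2.27e-14), for the arginine carrier Slc7a2 (0.42 ± 0.03), and for 3 of the 6 lysosomal and proton-coupled carriers. Slc43a2 was thus higher in each rapamycin library and Slc7a5 lower.

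The integrated stress response slows translation and induces the factor ATF4. Through a composite promoter element, CARE, ATF4 is known to act on many amino acid genes. Of the kinases, factors and feedback genes of the stress response 0 rose and 12 fell of 17 tested (median log2 fold change -0.31), or 3 and 12 with upper-quartile scaling. Trib3, a pseudokinase that restrains ATF4 and AKT, was at 3.18, 3.64 and 3.68 CPM with rapamycin, against 11.5, 12.1 and 10.4 CPM with DMSO (log2 fold change -1.69 ± 0.12, adjusted p = 1.01e-13). Atf5, a relative of ATF4, was at 27.5, 28 and 28.6 CPM with rapamycin, against 49.8, 50.2 and 53.4 CPM with DMSO (log2 fold change -0.87 ± 0.04, adjusted p = 2.51e-48). Atf4 itself was at 229, 226 and 226 CPM with rapamycin, against 297, 304 and 299 CPM with DMSO (log2 fold change -0.40 ± 0.02, adjusted p = 8.54e-47). Chac1, which degrades glutathione, was at 9.8, 7.57 and 7.73 CPM with rapamycin, against 12.3, 11.3 and 12.5 CPM with DMSO (log2 fold change -0.52 ± 0.07, adjusted p = 8.66e-11). In all 4 genes the groups were separate, with rapamycin lower. The CARE letters TGNTGCAA (N is any base, both strands) stood within the 250 bases before the RefSeq start site in 2.17% of the 10897 tested genes with a promoter sequence and in 4 of 16 such genes of this list, Atf3, Nupr1, Trib3 and Chac1, of which Nupr1 was not called. The stretches around the match in Trib3 (chr2:152344061-152344129 on the minus strand), Chac1 (chr2:119351013-119351092 on the plus strand) and Slc7a11 (chr3:50443617-50443715 on the minus strand; GRCm38) are printed because these genes fell, with the matched letters in capitals, read in the direction of the gene.

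Trib3: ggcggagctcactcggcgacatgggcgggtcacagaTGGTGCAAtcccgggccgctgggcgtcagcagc
Chac1: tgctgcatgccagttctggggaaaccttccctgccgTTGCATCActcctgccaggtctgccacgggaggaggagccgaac
Slc7a11: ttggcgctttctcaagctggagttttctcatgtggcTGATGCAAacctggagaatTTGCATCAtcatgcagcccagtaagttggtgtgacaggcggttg

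The match lay 33 bases before the start site in Trib3 and 193 bases in Chac1, and Slc7a11 held a pair of them on opposite strands, the first 66 bases before the start. The element was no mark of falling genes in general: of 236 genes with it 34.3% were called higher and 30.9% lower, against 27.9% and 36.6% of the genes without it.

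Mitochondrial genes encoded in the nucleus fell in near-complete sets of small size. All tested enzymes of the tricarboxylic acid cycle were lower, as 0 rose and 23 fell of 23 tested (median log2 fold change -0.29). Pcx, which feeds the cycle from pyruvate, was at 55.1, 54.1 and 55 CPM with rapamycin, against 83.6, 84.4 and 84.9 CPM with DMSO (log2 fold change -0.62 ± 0.03, adjusted p = 2.24e-44) and the 2-oxoglutarate dehydrogenase Ogdh at -0.53 ± 0.02. Of the mitochondrial ribosomal proteins 3 rose and 71 fell of 79 tested (median log2 fold change -0.28), and of the import machinery 1 rose and 27 fell of 31 tested (median log2 fold change -0.26). The small import chaperone Timm8a1, with the largest fall of the import list, was at 10.9, 10.7 and 11.1 CPM with rapamycin, against 18.4, 19.7 and 18 CPM with DMSO (log2 fold change -0.78 ± 0.06, adjusted p = 7.53e-25). The DMSO libraries were higher throughout for Pcx, Ogdh and Timm8a1. Genes of the mitochondrial genome did not follow. Of 29 tested, a count that does not separate messages from other mitochondrial RNAs, 9 (31%) were called higher and 2 (6.9%) lower. The share called higher was near the 27.5% of all genes, and the share called lower was below their 32.2%. The message of mt-Co1, a subunit of cytochrome oxidase, was at 4378, 4354 and 4360.1 CPM with rapamycin, against 3764, 3718 and 3716 CPM with DMSO (log2 fold change 0.23 ± 0.01, adjusted p = 2.19e-38).

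Chaperones of the cytosol and of mitochondria were lower together. Of the heat shock proteins 2 rose and 27 fell of 31 tested (median log2 fold change -0.41), all 7 mitochondrial ones among the falls, and of the CCT chaperonin and prefoldin 1 rose and 12 fell of 14 tested (median log2 fold change -0.42). Hsph1 (HSP105), a nucleotide exchange partner of HSP70, was at 175, 170.0 and 173 CPM with rapamycin, against 342, 337 and 338 CPM with DMSO (log2 fold change -0.97 ± 0.02, adjusted p = 4.15e-94). Hspa9, the mitochondrial HSP70, was at 659, 668 and 656 CPM with rapamycin, against 1094, 1100.1 and 1085 CPM with DMSO (log2 fold change -0.72 ± 0.01, adjusted p = 1.45e-95). All 8 subunits of the CCT ring, which folds actin and tubulin, fell, with log2 fold changes between -0.41 ± 0.02 (Tcp1) and -0.63 ± 0.02 (Cct3). Hspd1, the mitochondrial HSP60 (-0.89 ± 0.02), and the HSP90 genes Hsp90aa1 (-0.62 ± 0.01) and Hsp90ab1 (-0.58 ± 0.01) fell as well, though copies elsewhere in the genome may share reads with them, so that their values are uncertain.

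Polyamines, iron and MYC partners also shifted. In polyamine metabolism 2 rose and 9 fell of 12 tested (median log2 fold change -0.20), with spermidine synthase Srm at 98.3, 92.6 and 93.3 CPM with rapamycin, against 170.3, 169.6 and 176 CPM with DMSO (log2 fold change -0.86 ± 0.02, adjusted p = 2.74e-77). Smox, which oxidises spermine, was at 7.06, 6.71 and 6.98 CPM with rapamycin, against 4.78, 5.18 and 3.91 CPM with DMSO (log2 fold change 0.59 ± 0.09, adjusted p = 1.04e-08). Srm was thus lower and Smox higher in every rapamycin library. In iron handling 1 rose and 11 fell of 13 tested (median log2 fold change -0.16). The transferrin receptor Tfrc was at 138, 146 and 140.4 CPM with rapamycin, against 262, 269 and 266 CPM with DMSO (log2 fold change -0.91 ± 0.02, adjusted p = 2.94e-89). In the MYC network 5 rose and 4 fell of 12 tested (median log2 fold change 0.11). Myc (0.43 ± 0.02 on the log2 scale), Mycl (0.88 ± 0.07) and their antagonists Mxd4 (0.79 ± 0.03), Mxd1 (0.42 ± 0.07) and Mnt (0.44 ± 0.03) were the rises. The common partner Max (-0.18 ± 0.03), its relative Mlx (-0.31 ± 0.04), Mlxip (-0.14 ± 0.03), a partner of MLX, and Mga (-0.10 ± 0.03), another partner of MAX, were the falls, of which Mlxip and Mga lose their call with upper-quartile scaling.

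Against these falls stood secreted inflammatory signals. Of interleukins, related cytokines and their receptors 30 rose and 11 fell of 50 tested (median log2 fold change 0.25), and of the ligands alone 17 rose and 3 fell of 21 tested (median log2 fold change 0.58). Il6 was at 13.5, 12 and 12.4 CPM with rapamycin, against 5.02, 4.32 and 4.3 CPM with DMSO (log2 fold change 1.47 ± 0.08, adjusted p = 1.66e-41). The epithelial and stromal cytokine Tslp was at 2.99, 3.52 and 3.48 CPM with rapamycin, against 1.13, 0.447 and 1.17 CPM with DMSO (log2 fold change 1.83 ± 0.17, adjusted p = 9.40e-19). Lif, a cytokine of the IL-6 family, was at 37.5, 36.9 and 34 CPM with rapamycin, against 18.5, 19.9 and 20.5 CPM with DMSO (log2 fold change 0.88 ± 0.04, adjusted p = 2.17e-43). No rapamycin library overlapped a DMSO library in these 3 genes. Csf2 (GM-CSF), at 1.13 CPM with rapamycin and 0.194 CPM with DMSO (2.5 ± 0.31 on the log2 scale), and Csf1 (M-CSF), at 989 CPM with rapamycin and 659 CPM with DMSO (0.59 ± 0.01), rose too. Receptors were mixed, as 13 rose and 8 fell of 29 tested (median log2 fold change 0.12). The decoy receptor Il13ra2 was at 10.9 CPM with rapamycin and 4.35 CPM with DMSO (1.33 ± 0.08). The TNF family receptor Tnfrsf19 was at 0.086 CPM with rapamycin and 0.295 CPM with DMSO (-1.78 ± 0.54), levels near the floor that rest on few counts.

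Chemokines rose with them. In that family 15 rose and 2 fell of 21 tested (median log2 fold change 0.39), and their summed share of the counts was 0.2604% ± 0.00146 with rapamycin and 0.1708% ± 0.00129 with DMSO (SD, n = 3 each; exact permutation p = 0.1). The neutrophil attractant Cxcl1 was at 532, 517 and 519 CPM with rapamycin, against 323, 326 and 317 CPM with DMSO (log2 fold change 0.70 ± 0.02, adjusted p = 9.99e-86). Ppbp, another, was at 28, 29 and 27.2 CPM with rapamycin, against 8.2, 8.49 and 8.15 CPM with DMSO (log2 fold change 1.76 ± 0.05, adjusted p = 1.43e-70). The monocyte attractant Ccl2 was at 581, 566 and 575 CPM with rapamycin, against 348, 339 and 344 CPM with DMSO (log2 fold change 0.74 ± 0.02, adjusted p = 4.88e-91). Ccl20, which attracts cells that carry the receptor CCR6, was at 6.2, 6.68 and 6.35 CPM with rapamycin, against 3.39, 3.31 and 3.38 CPM with DMSO (log2 fold change 0.93 ± 0.10, adjusted p = 2.51e-15). All 4 were higher in each rapamycin library. Of the acute-phase proteins 11 rose and 0 fell of 13 tested (median log2 fold change 0.53). Among them Lcn2, which binds bacterial siderophores, was at 63.6, 59.9 and 60.3 CPM with rapamycin, against 17.4, 16.3 and 17.9 CPM with DMSO (log2 fold change 1.83 ± 0.04, adjusted p = 1.33e-92). The serum amyloid Saa3 was at 39.998, 37.1 and 37.7 CPM with rapamycin, against 13.9, 14.3 and 14.5 CPM with DMSO (log2 fold change 1.43 ± 0.05, adjusted p = 4.67e-68). Their rapamycin libraries were again all higher. Of the complement genes 10 rose and 0 fell of 17 tested (median log2 fold change 0.59), among them C3 (0.88 ± 0.02) and the C1 proteases C1s1 (1.16 ± 0.02) and C1ra (0.81 ± 0.03), for which the near copies C1s2 and C1rb may share reads. The share of complement genes called, 58.8%, was near the 59.7% of all genes.

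NF-kB, a factor known to drive many inflammatory genes, also induces its own inhibitors, and its activity was not measured here. Of its subunits, kinases and feedback genes 15 rose and 1 fell of 19 tested (median log2 fold change 0.44). Tnfaip3 (A20), a ubiquitin editor that ends the signal, was at 76.2, 73.4 and 74.2 CPM with rapamycin, against 38, 40.4 and 38.4 CPM with DMSO (log2 fold change 0.94 ± 0.03, adjusted p = 2.17e-67). The inhibitor Nfkbia was at 144, 142 and 141 CPM with rapamycin, against 103, 103 and 105.4 CPM with DMSO (log2 fold change 0.46 ± 0.02, adjusted p = 2.78e-45). The kinase Ikbke was at 16.6, 15 and 14.4 CPM with rapamycin, against 8.98, 7.98 and 9.1 CPM with DMSO (log2 fold change 0.81 ± 0.07, adjusted p = 2.22e-24). All 3 were higher in every rapamycin library. The subunit messages moved less, with Rela at 0.12 ± 0.02, Nfkb1 at 0.05 ± 0.02 (a call that is lost with other settings) and Relb at 0.54 ± 0.04, and Rel (-0.01 ± 0.04) was not called. The NF-kB motif, searched on both strands as a base pattern with alternatives at some positions, stood in the 250 bases before the start site of 4.4% of the tested genes with a promoter sequence, of 6 of 14 chemokine genes and of 7 of 15 genes of the NF-kB list. Stretches around the match, with the matched letters in capitals, are printed for 5 genes that rose, Ccl20 (chr1:83116650-83116731 on the plus strand), Cxcl1 (chr5:90891138-90891220 on the plus strand), Il6 (chr5:30013034-30013113 on the plus strand), Tnfaip3 (chr10:19015411-19015571 on the minus strand) and Nfkbia (chr12:55492648-55492712 on the minus strand; GRCm38).

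Ccl20: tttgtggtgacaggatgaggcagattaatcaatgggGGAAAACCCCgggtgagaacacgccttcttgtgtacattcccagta
Cxcl1: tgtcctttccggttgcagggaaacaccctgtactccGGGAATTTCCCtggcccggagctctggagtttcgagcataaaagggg
Il6: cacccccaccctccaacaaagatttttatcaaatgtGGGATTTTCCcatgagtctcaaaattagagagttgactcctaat
Tnfaip3: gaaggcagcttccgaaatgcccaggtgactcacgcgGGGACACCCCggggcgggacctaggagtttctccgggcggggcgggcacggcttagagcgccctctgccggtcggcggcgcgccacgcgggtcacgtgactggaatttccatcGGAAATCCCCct
Nfkbia: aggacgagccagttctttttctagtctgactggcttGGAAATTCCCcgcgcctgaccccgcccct

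In these genes the first matched base lay 29 (Nfkbia) to 125 (Tnfaip3) bases before the start. Chemokine genes with the match did not all rise, as Cxcl2 (0.01 ± 0.18) was not called and Cxcl10 (-0.23 ± 0.08) fell, a call that is lost with upper-quartile scaling. Both are named after their values were seen. Among all 480 genes with the motif 31.2% were called higher and 31.5% lower, against 27.9% and 36.7% of those without it.

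**Figure D2:**
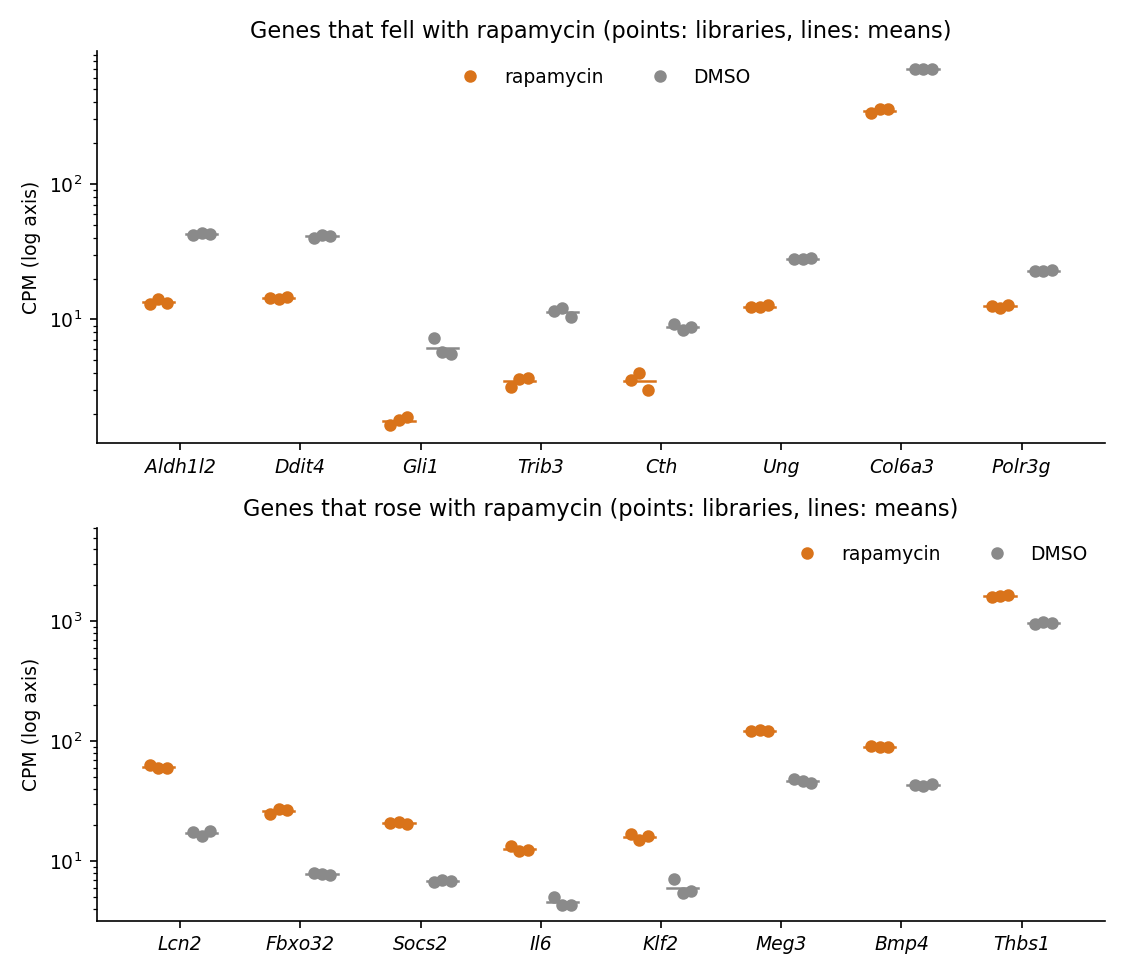
Level in each library (CPM, log axis) of 16 genes named in the text, with the 3 rapamycin libraries (orange) left of the 3 DMSO libraries (grey) for each gene. The upper panel holds genes that fell, such as Aldh1l2 and Ddit4, and the lower panel genes that rose, such as Lcn2 and Il6. No gene shown has overlapping groups, which was a condition for naming a gene by its fold.

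The feedback inhibitors of cytokine receptors were selective. Of SOCS, STAT and related genes 10 rose and 1 fell of 17 tested (median log2 fold change 0.08). Socs2, which restrains growth hormone signalling, was at 20.7, 21.1 and 20.5 CPM with rapamycin, against 6.67, 6.97 and 6.89 CPM with DMSO (log2 fold change 1.60 ± 0.06, adjusted p = 4.68e-57). Cish, another target of STAT5, was at 7.4, 7.83 and 7.23 CPM with rapamycin, against 3.6, 4.08 and 3.35 CPM with DMSO (log2 fold change 1.03 ± 0.09, adjusted p = 5.75e-20). Pim1, a kinase that STAT factors induce, was at 39.9, 38.4 and 39.7 CPM with rapamycin, against 16.9, 17.4 and 16.5 CPM with DMSO (log2 fold change 1.22 ± 0.04, adjusted p = 2.17e-63). Rapamycin libraries were higher without overlap for these 3 genes, while Socs1 (-0.09 ± 0.07) was not called and Socs3 was at 0.15 ± 0.03. Of the interferon-stimulated genes 20 rose and 3 fell of 42 tested (median log2 fold change 0.21). In all 54.8% of them were called, against 59.7% of all genes, so their number of calls is no trait of the group. The interferon-induced GTPase Gbp2 was at 26.3, 23.9 and 23.3 CPM with rapamycin, against 11.2, 12.4 and 12.5 CPM with DMSO (log2 fold change 1.03 ± 0.05, adjusted p = 8.64e-43). Ifi47, another such GTPase, was at 3.21, 3.8 and 3.12 CPM with rapamycin, against 0.867, 1.07 and 1.12 CPM with DMSO (log2 fold change 1.72 ± 0.16, adjusted p = 1.99e-19). Both belong to families of close copies and are uncertain. Ifit2, an antiviral RNA-binding protein, was at 48.4, 48.2 and 47.7 CPM with rapamycin, against 57.5, 59.98 and 57 CPM with DMSO (log2 fold change -0.27 ± 0.03, adjusted p = 3.09e-13). Groups were separate for all 3, with the GTPases higher and Ifit2 lower with rapamycin. Of the class I antigen presentation genes 11 rose and 1 fell of 17 tested (median log2 fold change 0.19).

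Growth factors of the TGF-beta and BMP family formed another rising group, in which 37 rose and 8 fell of 53 tested (median log2 fold change 0.35). Both ligands and their inhibitors were higher. Of the ligands 9 rose and 3 fell of 13 tested (median log2 fold change 0.43), with Bmp4, a patterning and bone-inducing factor, at 92, 89.1 and 88.8 CPM with rapamycin, against 43.6, 42.1 and 44.2 CPM with DMSO (log2 fold change 1.05 ± 0.03, adjusted p = 1.38e-75). The activin chain Inhbb was at 7.01, 7.57 and 7.78 CPM with rapamycin, against 3.84, 4.26 and 3.35 CPM with DMSO (log2 fold change 0.97 ± 0.09, adjusted p = 8.79e-19). Of the inhibitors 14 rose and 1 fell of 17 tested (median log2 fold change 0.53), with the activin trap Fst (follistatin) at 19.2, 18.8 and 18.1 CPM with rapamycin, against 8.46, 10.8 and 10.02 CPM with DMSO (log2 fold change 0.95 ± 0.06, adjusted p = 1.16e-31) and the BMP trap Grem1 (gremlin) at 585 CPM with rapamycin and 405 CPM with DMSO on average (0.53 ± 0.02). All rapamycin libraries lay above the DMSO libraries for each of these genes. The latent TGF-beta binding proteins Ltbp2, at 193 CPM with rapamycin and 94.6 CPM with DMSO (1.03 ± 0.02), and Ltbp3 (0.54 ± 0.02) rose too. Of the 11 receptors tested 6 rose and none fell.

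Other growth signals were selective. Among ligands of receptor kinases 17 rose and 6 fell of 32 tested (median log2 fold change 0.18). Fgf2 was at 12.4, 13.9 and 12.2 CPM with rapamycin, against 5.75, 4.91 and 5.97 CPM with DMSO (log2 fold change 1.2 ± 0.08, adjusted p = 3.18e-33). Pdgfb was at 10.6, 10.9 and 11.8 CPM with rapamycin, against 5.7, 6.34 and 6.19 CPM with DMSO (log2 fold change 0.87 ± 0.07, adjusted p = 3.76e-22). The neurotrophin Bdnf was at 54.9, 54.4 and 53.8 CPM with rapamycin, against 30.9, 32.5 and 30.9 CPM with DMSO (log2 fold change 0.79 ± 0.04, adjusted p = 7.10e-50). Separate groups with rapamycin higher were seen for all 3, whereas pleiotrophin, Ptn (-0.38 ± 0.02), fell, as did Fgf5 (-0.91 ± 0.32), a call that is lost without rapamycin replicate 1. Among the receptors 13 rose and 13 fell of 33 tested (median log2 fold change -0.01), or 13 and 6 with upper-quartile scaling, with Igf1r (0.39 ± 0.03), the discoidin receptor Ddr1 (0.55 ± 0.02), Axl (0.42 ± 0.02) and the substrate Irs2 (0.35 ± 0.02) higher and Mertk (-0.56 ± 0.07) lower. Igfbp7, a secreted IGF-binding protein, was at 334, 324 and 323 CPM with rapamycin, against 194, 188 and 199 CPM with DMSO (log2 fold change 0.75 ± 0.02, adjusted p = 4.51e-82). Pappa, the protease that frees IGF from its binding proteins, was at 27.3, 29.9 and 30.5 CPM with rapamycin, against 17.6, 17.3 and 17 CPM with DMSO (log2 fold change 0.76 ± 0.05, adjusted p = 1.18e-34). Wnt signalling had no common direction, as 10 rose and 12 fell of 38 tested (median log2 fold change 0.04), or 14 and 7 with upper-quartile scaling. Of its inhibitors and targets 3 rose and 7 fell of 15 tested (median log2 fold change -0.01), with the secreted Wnt trap Sfrp1 (102 CPM with rapamycin and 51 CPM with DMSO, 1.01 ± 0.03) and the brake Nkd2 (10.7 CPM with rapamycin and 4.75 CPM with DMSO, 1.17 ± 0.08) among the rises and the related trap Sfrp2 (-0.32 ± 0.03) among the falls. Gli1, the target gene by which hedgehog signalling is read, was at 1.65, 1.82 and 1.89 CPM with rapamycin, against 7.22, 5.75 and 5.52 CPM with DMSO (log2 fold change -1.79 ± 0.13, adjusted p = 5.10e-28), the largest fall among named genes of 1 to 10 CPM, with no overlap of the groups.

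Several transcription factors and FoxO targets stood out. Of the KLF family 9 rose and 3 fell of 14 tested (median log2 fold change 0.16), and Klf2, a factor of quiescence in endothelium and lymphocytes, was at 16.7, 15 and 16.3 CPM with rapamycin, against 7.04, 5.39 and 5.64 CPM with DMSO (log2 fold change 1.41 ± 0.07, adjusted p = 2.31e-43). Of the FoxO and atrophy genes 14 rose and 6 fell of 23 tested (median log2 fold change 0.22). The ubiquitin ligase Fbxo32 (atrogin-1) was at 24.9, 27.4 and 26.6 CPM with rapamycin, against 7.91, 7.8 and 7.73 CPM with DMSO (log2 fold change 1.75 ± 0.06, adjusted p = 2.25e-68). Ccng2, a cyclin of resting cells, was at 55.8, 54.7 and 54.1 CPM with rapamycin, against 28.2, 30.4 and 28.5 CPM with DMSO (log2 fold change 0.92 ± 0.04, adjusted p = 2.77e-56). In all 3 the groups were separate, with rapamycin higher. The HOX factors, which keep positional identity, were mostly not called, as 3 rose and none fell of 28 tested, and none rose without DMSO replicate 3. Only 1 HOX factor averaged at least 5 CPM, so a lack of calls here does not mean stable levels. Their log2 fold changes ran from -0.57 to 0.61.

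Matrix genes moved in both directions. Of the collagen genes tested 62.5% were called, near the 59.7% of all genes, so their count of calls is no trait of the family. Collagen genes took 1.871% ± 0.0175 of the counts with rapamycin and 1.982% ± 0.0143 with DMSO (SD, n = 3 each; exact permutation p = 0.1), and 9 rose and 11 fell of 32 tested (median log2 fold change 0.03), or 12 and 10 with upper-quartile scaling. The 3 chains of collagen VI named here fell, with Col6a3 at 332, 354 and 356 CPM with rapamycin, against 703, 699.7 and 708 CPM with DMSO (log2 fold change -1.02 ± 0.02, adjusted p = 5.22e-83), Col6a1 at -0.37 ± 0.01 and Col6a2 at -0.42 ± 0.02. The main chains Col1a1 (-0.32 ± 0.01), Col1a2 (-0.14 ± 0.01) and Col3a1 (-0.31 ± 0.02) fell too. Col5a2, a chain that sets fibril width, was at 1526, 1529 and 1556 CPM with rapamycin, against 1263, 1272 and 1283 CPM with DMSO (log2 fold change 0.27 ± 0.01, adjusted p = 5.82e-43). Col11a2 was at 10.5, 10.4 and 10.2 CPM with rapamycin, against 5.49, 5.21 and 5.19 CPM with DMSO (log2 fold change 0.96 ± 0.08, adjusted p = 2.95e-23). Rapamycin was thus lower than DMSO in every library for collagens I, III and VI and higher for these V and XI chains. Of the collagen processing genes 7 rose and 12 fell of 23 tested (median log2 fold change -0.12), or 10 and 11 with upper-quartile scaling. The collagen chaperone Serpinh1 (HSP47) was at 769.5, 748 and 761 CPM with rapamycin, against 1112, 1100.1 and 1108 CPM with DMSO (log2 fold change -0.54 ± 0.01, adjusted p = 8.74e-78), and the crosslinking oxidases Lox (0.30 ± 0.01) and Loxl1 (0.33 ± 0.02) rose.

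Glycoproteins and proteoglycans took a larger share, at 1.955% ± 0.0175 with rapamycin and 1.528% ± 0.00614 with DMSO (exact permutation p = 0.1), and 24 rose and 16 fell of 46 tested (median log2 fold change 0.17). Thbs1 (thrombospondin-1), which activates latent TGF-beta, was at 1613, 1644 and 1658 CPM with rapamycin, against 957, 981 and 978 CPM with DMSO (log2 fold change 0.75 ± 0.01, adjusted p = 1.30e-101). Fbln2 (fibulin-2) was at 1383, 1365 and 1382 CPM with rapamycin, against 873, 866 and 885 CPM with DMSO (log2 fold change 0.65 ± 0.01, adjusted p = 1.82e-92). The leucine-rich proteoglycan Prelp was at 7.51, 6.9 and 7.38 CPM with rapamycin, against 2.26, 1.61 and 2.09 CPM with DMSO (log2 fold change 1.86 ± 0.11, adjusted p = 2.54e-36). No library of these 3 overlapped the other group. In the opposite direction, the large aggregating proteoglycans Acan (1.252 CPM with rapamycin and 2.96 CPM with DMSO, -1.24 ± 0.17) and Vcan (174 CPM with rapamycin and 257 CPM with DMSO, -0.56 ± 0.02) fell. Cemip, which breaks down hyaluronan, was at 132, 133 and 136 CPM with rapamycin, against 49.99, 51.3 and 52.1 CPM with DMSO (log2 fold change 1.39 ± 0.03, adjusted p = 3.36e-101). Of the matrix proteases and inhibitors 22 rose and 3 fell of 36 tested (median log2 fold change 0.27). The stromelysins Mmp3 (13.4 CPM with rapamycin and 6.18 CPM with DMSO, 1.11 ± 0.07) and Mmp11 (70.6 CPM with rapamycin and 34.5 CPM with DMSO, 1.03 ± 0.03) rose together with the inhibitor Timp2 (1174 CPM with rapamycin and 799 CPM with DMSO, 0.56 ± 0.01). The actin gene of myofibroblasts, Acta2, was at 2462, 2392 and 2416 CPM with rapamycin, against 1679.7, 1659 and 1687 CPM with DMSO (log2 fold change 0.53 ± 0.01, adjusted p = 2.68e-83), while the cytoskeletal actin Actg1 was at -0.27 ± 0.01. The summed smooth muscle markers given above were higher, but that sum is mostly Acta2 itself. Whether a change in the mix of cell states had a part was not tested.

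**Figure D3:**
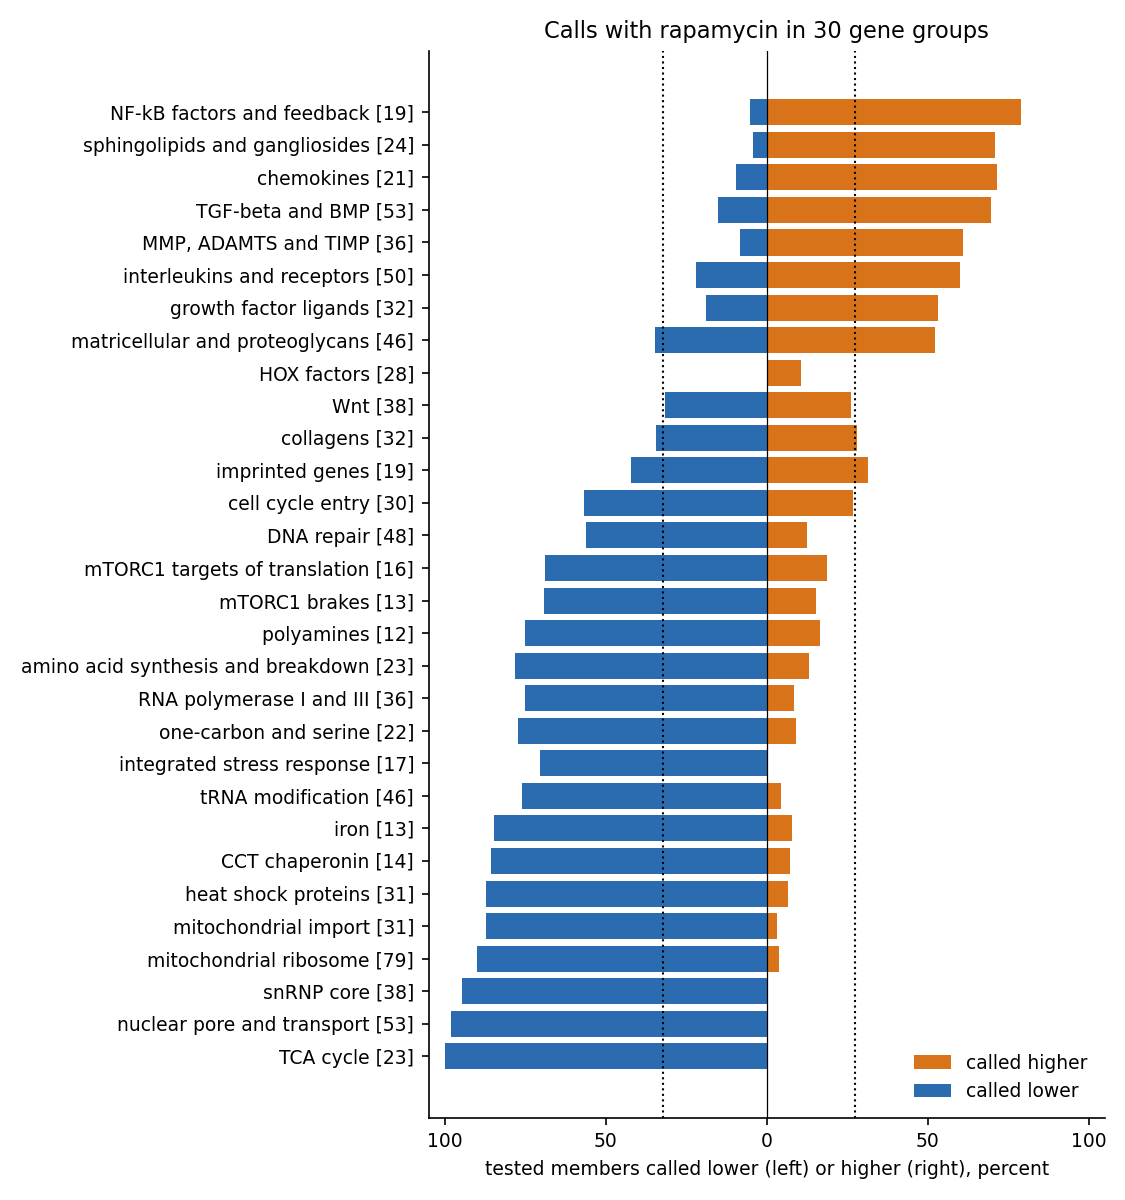
Share of tested members called higher (orange, to the right) and called lower (blue, to the left) with rapamycin, in percent, for 30 gene groups, with the number tested in brackets and dotted lines at the shares over all 15917 genes, 27.5% higher and 32.2% lower. Biosynthetic groups at the bottom reach furthest left, and secreted signals, NF-kB genes and sphingolipid genes at the top reach furthest right.

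Smaller families showed their own patterns. Of the sphingolipid and ganglioside genes 17 rose and 1 fell of 24 tested (median log2 fold change 0.13), with Kdsr, the reductase of the second step of sphingolipid synthesis, at 43.6, 46.4 and 46.7 CPM with rapamycin, against 25.5, 25 and 26.3 CPM with DMSO (log2 fold change 0.83 ± 0.04, adjusted p = 1.00e-46). In the V-ATPase, the proton pump of lysosomes, 7 of 9 membrane (V0) and accessory subunits rose and 1 fell, with Atp6v0d1 at 0.33 ± 0.03, and 2 of 8 peripheral (V1) subunits rose and 5 fell, with Atp6v1h at -0.32 ± 0.03. Of the S100 proteins 8 rose and 0 fell of 10 tested (median log2 fold change 0.33), and of the annexins 7 rose and 1 fell of 10 tested (median log2 fold change 0.13), with Anxa8 at 11.7, 12.5 and 12.4 CPM with rapamycin, against 2.18, 2.17 and 2.29 CPM with DMSO (log2 fold change 2.46 ± 0.09, adjusted p = 1.76e-60). Lpl, the lipoprotein lipase, was at 7.51, 8.5 and 7.68 CPM with rapamycin, against 15.6, 16 and 15.1 CPM with DMSO (log2 fold change -0.98 ± 0.07, adjusted p = 3.99e-30). The groups did not overlap in Kdsr, Anxa8 or Lpl.

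Genes of cell cycle entry fell more often than they rose, as 8 rose and 17 fell of 30 tested (median log2 fold change -0.20). Rb1, the retinoblastoma protein that holds E2F in check, was at 23, 23.5 and 21.8 CPM with rapamycin, against 15.4, 14 and 14.1 CPM with DMSO (log2 fold change 0.64 ± 0.05, adjusted p = 1.83e-23). E2f2 was at 6.22, 6.87 and 7.53 CPM with rapamycin, against 10.2, 10.2 and 10.9 CPM with DMSO (log2 fold change -0.60 ± 0.08, adjusted p = 2.00e-11). The cyclin-dependent kinase inhibitor Cdkn1a (p21) was at 2.57, 1.95 and 1.79 CPM with rapamycin, against 4.41, 4.11 and 4.49 CPM with DMSO (log2 fold change -1.05 ± 0.13, adjusted p = 3.40e-12), while the inhibitor Cdkn2b (p15) rose (0.30 ± 0.03). Rapamycin libraries were higher for Rb1 and lower for E2f2 and Cdkn1a throughout. Of the repair genes 6 rose and 27 fell of 48 tested (median log2 fold change -0.14), the falls being called in 16 of 22 genes of mismatch and base excision repair and in 11 of 26 of recombination and the Fanconi pathway, or 6 of 26 with upper-quartile scaling. Ung, the glycosylase that removes uracil from DNA, was at 12.3, 12.3 and 12.7 CPM with rapamycin, against 28, 27.7 and 28.1 CPM with DMSO (log2 fold change -1.17 ± 0.06, adjusted p = 1.20e-46). The thymine glycosylase Tdg was at 26.2, 26.1 and 26.8 CPM with rapamycin, against 41.8, 41.3 and 41.8 CPM with DMSO (log2 fold change -0.66 ± 0.04, adjusted p = 2.87e-34). In both the DMSO libraries were higher without overlap.

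Imprinted genes, read from 1 parental allele, went both ways, and 6 rose and 8 fell of 19 tested (median log2 fold change -0.12). Meg3, the maternal noncoding RNA of the Dlk1 cluster, was at 123, 124 and 122 CPM with rapamycin, against 48.3, 46.9 and 45 CPM with DMSO (log2 fold change 1.39 ± 0.03, adjusted p = 5.97e-99). Dlk1, the paternal gene of the same cluster, was at 73.9, 69.8 and 71.5 CPM with rapamycin, against 41.8, 44.6 and 46.2 CPM with DMSO (log2 fold change 0.70 ± 0.03, adjusted p = 6.19e-48). H19, the maternal noncoding RNA beside Igf2, was at 68, 74.1 and 69.8 CPM with rapamycin, against 128, 123 and 123 CPM with DMSO (log2 fold change -0.82 ± 0.03, adjusted p = 2.08e-68). Meg3, Dlk1 and Igf2 (0.35 ± 0.03) were thus higher and H19 lower in each rapamycin library. Peg10, a gene of retroviral descent read from the paternal allele, was at 114, 127 and 123 CPM with rapamycin, against 238, 243 and 245 CPM with DMSO (log2 fold change -1.001 ± 0.02, adjusted p = 5.45e-75), with rapamycin lower. In the circadian clock 4 rose and 8 fell of 19 tested (median log2 fold change -0.06), a median that is 0.00335 with upper-quartile scaling, with the activator Arntl (BMAL1) at -0.42 ± 0.07 and the repressors Cry1 at -0.56 ± 0.05 and Per3 at 0.38 ± 0.05.

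Promoters of the genes that moved most differed from the rest in composition. The 245 genes that rose at least 2-fold and had a promoter sequence held a median of 5 CpG pairs in the 250 bases before the start site, the 51 that fell at least 2-fold held 9, and all 10897 held 16. Most of the strong rises are in genes of low abundance, and among genes averaging 10 CPM or more the medians were 12 in the 29 that rose, 14 in the 6 that fell and 18 in all 7349. The AP-1 motif TGANTCA (both strands) stood in 11% of the genes that rose at least 2-fold and in 4.31% of all, the TEAD motif GGAATG in 16.7% and 10.7%, and CARE in 5.31% and 2.17%. The E-box CACGTG, read by MYC and TFEB, stood in 4.49% of those that rose at least 2-fold and in 8.36% of all, and the E2F motif TTCCCGC in 2.04% and 7.04%. In the 51 that fell at least 2-fold AP-1 stood in 4 (7.84%) and the E-box in 2 (3.92%), so neither order was particular to rises. TEAD stood in 7.84% of these 51, CARE in 1.96% and E2F in 9.8%. Among genes averaging 10 CPM or more the E-box was not less common in the rises, standing in 3 of the 29 that rose at least 2-fold (10.3%) and in 9.31% of all 7349. AP-1 stood in 3 of these 29 (10.3%) and in 3.5% of all, and TEAD in 6 (20.7%) and 10.1%. CARE stood in 1 of the 29 (3.45%) and in 1.86% of all, and E2F in 0 of 29 and 7.92%. With 29 genes these shares rest on few promoters. A start within a run of pyrimidines, the mark of messages under direct translational control by complex 1, was found in 2.4% of all genes and in 29.5% of cases went with a call of higher and in 34.1% with a call of lower, against 28% and 36.5% of the other genes. These shares are descriptions, and CpG-rich promoters hold CpG-containing letters more often.

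**Figure D4:**
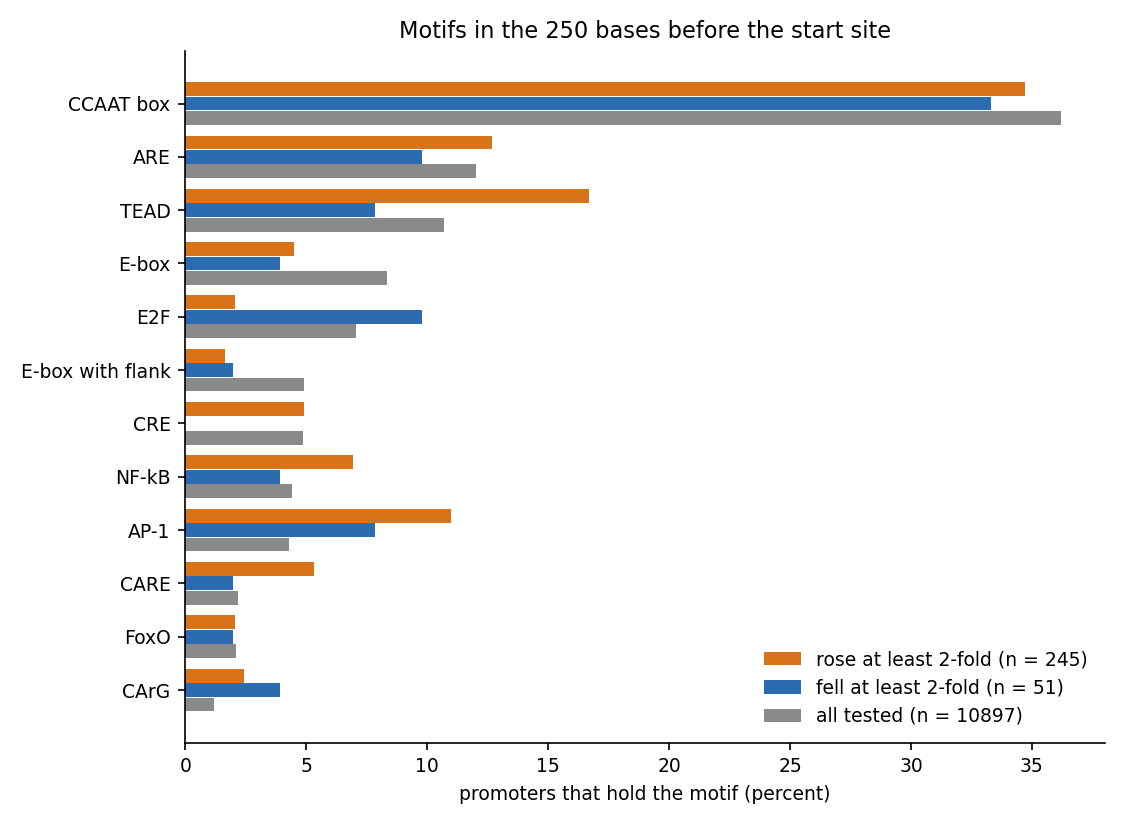
Share of promoters (percent, 250 bases before the start site) that hold each of 12 motifs, among genes that rose at least 2-fold with rapamycin (orange, n = 245), fell at least 2-fold (blue, n = 51) and all tested genes with a promoter (grey, n = 10897). AP-1 and TEAD letters are more common and E-box and E2F letters less common in the genes that rose than in all genes, an order that the E-box does not keep among genes averaging 10 CPM or more. For AP-1 and the E-box the genes that fell lie on the same side of all genes as those that rose.

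Rapamycin was compared with the ATP-site inhibitors to find where it differed from them, at doses that differ. With Torin1, 34.2% of the 15917 genes were called higher and 33.2% lower than with rapamycin (67.5% in all), which is 5451 and 5288 genes, or 6359 and 4489 with upper-quartile scaling. With RapaLink-1 32% were called higher and 33% lower (65% in all), which is 5088 and 5260 genes, or 6296 and 4311 with upper-quartile scaling. Differences are given as the other compound minus rapamycin, so that a negative value means a higher level with rapamycin. Some genes that fell were lower still with the other compounds. Aldh1l2 averaged 13.4 CPM with rapamycin, 1.86 CPM with Torin1, 2.34 CPM with RapaLink-1 and 42.8 CPM with DMSO, with Torin1 minus rapamycin at -2.83 ± 0.09 and RapaLink-1 minus rapamycin at -2.51 ± 0.09 on the log2 scale (adjusted p = 7.04e-67 and 1.04e-62). Mthfd2 averaged 69.9 CPM with rapamycin, 13.8 CPM with Torin1, 14.1 CPM with RapaLink-1 and 129 CPM with DMSO (differences -2.34 ± 0.04 with Torin1 and -2.32 ± 0.04 with RapaLink-1).

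Other messages were lowest with rapamycin. The nucleolar chaperone Npm1 averaged 1242 CPM with rapamycin, 2611 CPM with Torin1, 2375 CPM with RapaLink-1 and 1884 CPM with DMSO, with differences of 1.07 ± 0.01 with Torin1 and 0.93 ± 0.01 with RapaLink-1 (adjusted p = 2.02e-126 and 3.64e-117). Hspa8, the constitutive HSP70, averaged 1383 CPM with rapamycin, 2295 CPM with Torin1, 2348 CPM with RapaLink-1 and 1824 CPM with DMSO (0.73 ± 0.01 and 0.76 ± 0.01). Zfas1, a noncoding RNA that hosts snoRNAs, averaged 48.4 CPM with rapamycin, 265 CPM with Torin1, 236 CPM with RapaLink-1 and 62.1 CPM with DMSO (2.45 ± 0.03 and 2.28 ± 0.03). Lpl averaged 7.9 CPM with rapamycin, 13.5 CPM with Torin1, 13.1 CPM with RapaLink-1 and 15.6 CPM with DMSO (0.78 ± 0.07 and 0.74 ± 0.07). Each of these 4 genes fell with rapamycin and was higher with either other compound than with rapamycin, and Npm1 and Hspa8 may share reads with processed copies. For Sema5a, a guidance semaphorin, the means were 7.33 CPM with rapamycin, 11.9 CPM with Torin1, 7.07 CPM with RapaLink-1 and 19.6 CPM with DMSO, and the difference was 0.70 ± 0.07 with Torin1 (adjusted p = 9.15e-17) and -0.04 ± 0.08 with RapaLink-1 (adjusted p = 0.722).

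Some rises were largest with rapamycin. Timp2 averaged 1174 CPM with rapamycin, 964 CPM with Torin1, 1017 CPM with RapaLink-1 and 799 CPM with DMSO, with differences of -0.29 ± 0.01 with Torin1 and -0.21 ± 0.01 with RapaLink-1 (adjusted p = 6.54e-44 and 4.76e-30). S100a6, a calcium-binding protein, averaged 1476 CPM with rapamycin, 1179 CPM with Torin1, 1102 CPM with RapaLink-1 and 1161 CPM with DMSO (-0.33 ± 0.01 and -0.42 ± 0.01). In both genes rapamycin was above both other compounds, by test. Dlk1 averaged 71.8 CPM with rapamycin, 57.5 CPM with Torin1, 42.9 CPM with RapaLink-1 and 44.2 CPM with DMSO (-0.32 ± 0.03 and -0.74 ± 0.03). Klf2 was split, at 16 CPM with rapamycin, 11.9 CPM with Torin1, 23.2 CPM with RapaLink-1 and 6.02 CPM with DMSO, lower with Torin1 (-0.43 ± 0.06) and higher with RapaLink-1 (0.53 ± 0.05) than with rapamycin. For Hsph1 the differences were -0.29 ± 0.02 with Torin1 and -0.22 ± 0.02 with RapaLink-1. For the glycolytic enzyme Gapdh, which fell with rapamycin (-0.74 ± 0.01) and has many copies in the genome, the differences were 0.01 ± 0.01 with Torin1 and -0.01 ± 0.01 with RapaLink-1 (adjusted p = 0.47 and 0.554).

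**Figure D5:**
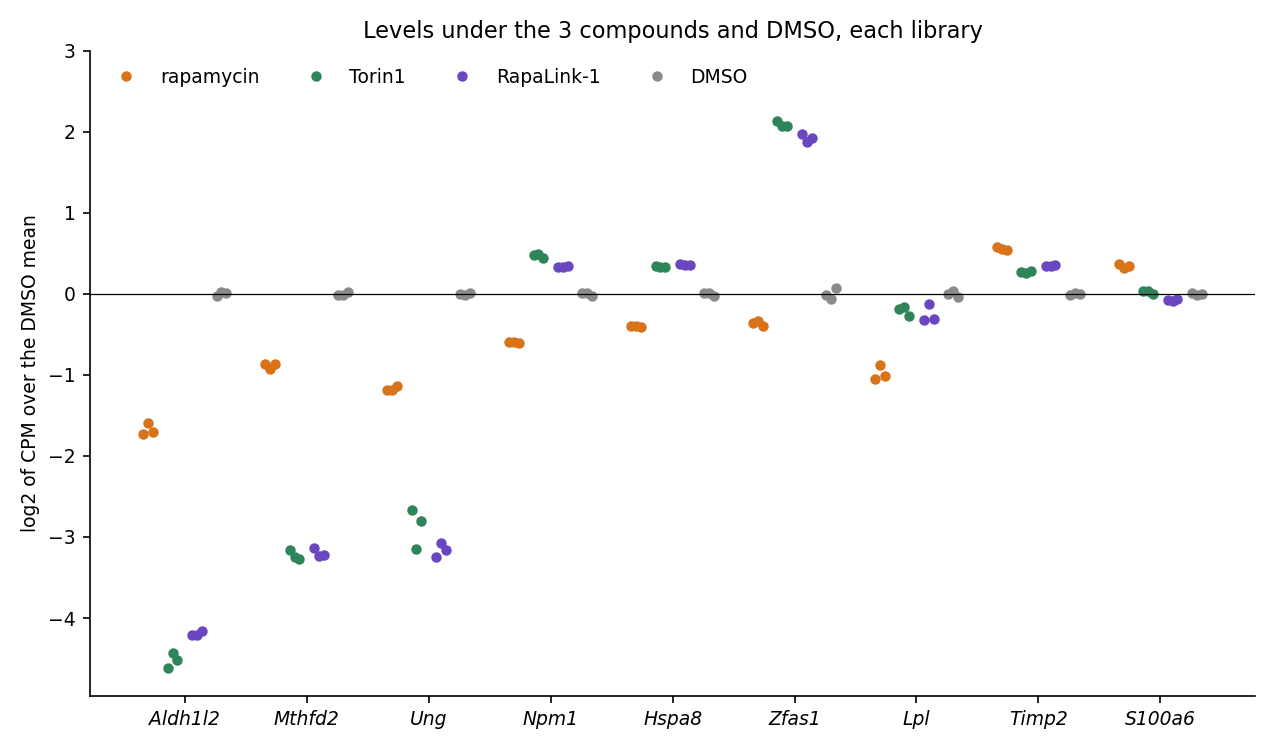
Level of 9 genes in each library relative to the DMSO mean (log2 of the ratio of CPM, vertical axis), with rapamycin (orange), Torin1 (green), RapaLink-1 (purple) and DMSO (grey) from left to right. Aldh1l2, Mthfd2 and Ung go further down from rapamycin to Torin1 and RapaLink-1, Npm1, Hspa8, Zfas1 and Lpl are lowest with rapamycin, and Timp2 and S100a6 are highest with it.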

How the data were processed

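Total RNA of 12 libraries was sequenced, and the authors deposited raw counts of reads per gene in 1 table per library. Per the submitters' processing notes, Trimmomatic 0.36, STAR 2.5.2b, featureCounts of Subread 1.5.2 and DESeq2 were used with build GRCm38. The strand setting, treatment of multi-mapping reads, annotation release and read length were not given in the sources used here. Multi-mapping reads would affect genes with near-identical copies, and an unstranded count would mix antisense partners. Totals were 30495065 to 39423703 in the rapamycin and DMSO libraries.

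From these counts, genes were filtered with filterByExpr by group, scaled by TMM and fitted in edgeR 4.0.16 (R 4.3.3, limma 3.58.1) with the quasi-likelihood test, group as the only term, over all 12 libraries (8 residual degrees of freedom, median prior degrees of freedom 154.2, common biological coefficient of variation 1.48%). Log2 fold changes carry their standard error, and CPM use TMM-scaled library sizes. The members and gene lists were chosen with earlier results of these data known. In short, named genes are the strongest called genes without provisional names, by fold within 2 abundance ranges or by change in CPM. Further named genes are the leading members of each list, all members of short lists, the markers, the direct targets and genes that differ most between compounds. Genes taken by fold or by difference between compounds also had to show no overlap of the groups. Of 73 lists, 5 written symbols matched through a synonym and 5 did not match; symbols came from GENCODE M21, which gave 48970 of 49315 IDs a symbol. Promoters came from RefSeq (GRCm38.p6). A share of counts was tested by an exact permutation test, whose smallest two-sided p is 0.1. Libraries of a group differed beyond sampling noise (chi-square per degree of freedom 1.33 to 1.99), so none was taken as a duplicate.

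The fit was tested on simulated counts of the rapamycin and DMSO comparison over 15230 genes, where it recovered 34, 38, 50 and 50 of 50 genes changed by 1.2, 1.5, 2 and 4-fold. All other genes were left unchanged, and the changed genes went up and down evenly and were not of very low count. The simulation therefore does not test the scaling or the calls at low counts in these data. Alternatives were DESeq2 1.42.0, other scalings and filters, only the groups compared, a replicate block, leaving out each library and 1.5-fold promoter classes.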

Additional observations from a re-analysis of the deposited data

How the results depend on the processing

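Rapamycin against DMSO gave 9508 called genes, and no gene called in both settings changed direction under any alternative run. DESeq2 called 3434 higher and 4758 lower, no filter on low counts 4013 and 5135, a mean of at least 5 CPM 3967 and 3854, and a fit of the compared groups alone 4644 and 4718. Upper-quartile scaling called 5481 higher and 4061 lower in place of 4381 and 5127, with the median log2 fold change at 0.067 in place of 0.0043. Leaving out 1 library gave 8880 to 9076 called genes. Same-numbered libraries did not deviate together (r = 0.0235, 0.0587 and -0.0040 for replicates 1 to 3, over genes), so the numbers were not taken as a pairing, and with the replicate block 9516 genes were called. Of 190 results for single genes in the text, calls were lost for Cxcl10 (-0.17), Mlxip and Mga with upper-quartile scaling, for Mga also with the mean of at least 5 CPM, for Fgf5 without rapamycin replicate 1 (-0.56) and with DESeq2 (-0.94), for Fkbp1a with upper-quartile scaling (-0.03) and the mean of at least 5 CPM (-0.03), and for Nfkb1, Tsc1 and Tsc2 in 3 or more settings; none reversed. Of 73 lists, 63 kept their majority with upper-quartile scaling and 73 with the replicate block. With 1.5-fold promoter classes the AP-1 share among rises was 7.66% and the median number of CpG pairs 10; the cause was not tested. Depth limits the genes under 1 CPM, where small changes could not be called.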

Other observations

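Genes of the glutathione and thioredoxin systems moved in both directions. Of the glutathione and thioredoxin genes 9 rose and 13 fell of 28 tested (median log2 fold change -0.10). Both subunits of the enzyme that starts glutathione synthesis were lower, Gclm at 95.3, 92 and 94.3 CPM with rapamycin, against 155, 153 and 146 CPM with DMSO (log2 fold change -0.69 ± 0.02, adjusted p = 6.80e-63) and Gclc at 48.3 CPM with rapamycin and 71.8 CPM with DMSO on average (-0.57 ± 0.03). The glutathione reductase Gsr was at 81.8, 82.9 and 83.1 CPM with rapamycin, against 128, 127 and 128 CPM with DMSO (log2 fold change -0.63 ± 0.03, adjusted p = 6.08e-55). The transferase Gsta4, which clears lipid aldehydes, was at 54.9, 53.5 and 53.4 CPM with rapamycin, against 106, 104 and 104.9 CPM with DMSO (log2 fold change -0.96 ± 0.03, adjusted p = 5.29e-72). In these genes every rapamycin library was lower than every DMSO library. The mitochondrial peroxiredoxin Prdx3 fell (-0.66 ± 0.03), and the transferase Gstt1 rose (0.66 ± 0.12). In the prostaglandin pathway 6 rose and 6 fell of 14 tested (median log2 fold change 0.07), and Ptgs2 (COX-2), the inducible enzyme of its first committed step, was at 190.2, 193 and 186 CPM with rapamycin, against 115, 117 and 115 CPM with DMSO (log2 fold change 0.71 ± 0.02, adjusted p = 2.76e-74).

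Surface and feedback genes were selective. Of the integrins 9 rose and 2 fell of 19 tested (median log2 fold change 0.11), with Itgb5, a vitronectin receptor chain, at 420.2, 393 and 389 CPM with rapamycin, against 252, 258 and 261 CPM with DMSO (log2 fold change 0.64 ± 0.02, adjusted p = 5.08e-58) and the collagen receptor chain Itga2 at 9.98 CPM with rapamycin and 5.8 CPM with DMSO (0.78 ± 0.08), while Itgb8 fell (-0.62 ± 0.07). The share of integrins called, 57.9%, was near the 59.7% of all genes. Among genes that feed back on the kinase ERK 9 rose and 4 fell of 20 tested (median log2 fold change 0.06), with the ERK phosphatase Dusp6 at 56.2, 56.6 and 56 CPM with rapamycin, against 33.1, 31.1 and 32.1 CPM with DMSO (log2 fold change 0.81 ± 0.04, adjusted p = 2.79e-49). Groups were separate and rapamycin higher for Itgb5 and Dusp6. Of the semaphorins and their receptors 12 rose and 9 fell of 28 tested (median log2 fold change 0.04). The secreted Sema3c was at 272, 276 and 271 CPM with rapamycin, against 177, 177 and 176 CPM with DMSO (log2 fold change 0.63 ± 0.02, adjusted p = 3.60e-72), and the receptors Plxna2 (-0.66 ± 0.04) and Nrp1 (-0.46 ± 0.03) fell. These lists were chosen with earlier results known, and no explanation for them was tested.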
